A study of Rattus norvegicus with 9 samples.

Results

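Voltage-gated calcium and sodium channels were examined in the infarcted hemispheres of rats at day 14 after cerebral ischemia/reperfusion. The members were the array probes whose gene symbol starts with Cacna, Cacnb, or Cacng, or with Scn followed by a number and the letter a or b. These were 52 of the 30367 non-control probes, and they named 40 of the 19293 gene symbols on the array, of which 20 encode pore-forming and 20 encode auxiliary subunits. For the 12 genes with more than 1 probe, the probe with the highest mean log2 signal over the 9 arrays stood for the gene. A gene was tested if some group had its probe well above background on each of the 3 arrays, which 37 genes passed (18 pore-forming and 19 auxiliary). Cacna1f and Cacna2d4 were above background on 0 of 9 arrays, and Scn9a was above background on 2 of 3 arrays in each group. Scn7a passed through the I/R arrays alone and Scn10a through the Sham arrays alone.

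All rats were male Sprague-Dawley rats, with 3 rats and 3 arrays in each group. The Sham rats had sham surgery and solvent injections. The I/R rats had 2 h of middle cerebral artery occlusion with a nylon suture, followed by reperfusion. The DHI rats had the same occlusion and then daily injections of Danhong injection, a preparation of 2 herbs, into the tail vein. The model is a mixed one: a hemisphere holds infarcted and spared tissue together, and rats were accepted as I/R models on their neurological deficit score. In such bulk tissue, fewer cells of a type and less RNA per cell cannot be told apart. One slide carried the Sham and I/R rats and a second slide, scanned separately, carried the DHI rats, so that DHI treatment and slide cannot be told apart. In these genes DHI 1 stood nearer to the I/R than to the Sham arrays, and the DHI versus I/R counts and the largest differences are given with and without it.

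The share of probes well above background varied from 75.2% to 78.9% among the arrays, and the 75th percentile of the signals from 1816 to 3464. Throughout, a level is the log2 signal of a probe minus the 75th percentile of its array on the log2 scale, so that levels of different probes are not compared. A difference is between group means of levels, given with its standard error (SE). The limma SE and p of a probe use 1 spread pooled over the groups in the fit, also where only 2 of them are compared. A gene was called at FC over 1.5 and an unadjusted limma p under 0.05. The Benjamini-Hochberg adjusted p is over all 23747 probes tested. As a check of the labelled tissue, all 10 neuron markers of a list were well above background on every array.

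Voltage-gated sodium channels open on depolarization and carry the upstroke of the action potential, while voltage-gated calcium channels turn depolarization into calcium entry for transmitter release, dendritic signaling, and gene regulation. Each has a large pore-forming subunit, named alpha. The auxiliary subunits (sodium channel beta, calcium channel beta, and alpha2delta) set how many channels reach the membrane and how they gate. Several gamma subunits act mainly as partners of AMPA-type glutamate receptors. In the brain, most members are made chiefly by neurons, while Cacna1s, Cacng1, and Scn4a are best known from skeletal muscle, and Scn9a, Scn10a, and Scn11a from sensory neurons.

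Most channel genes were lower in I/R than in Sham rats. Of the 37 genes tested, 27 were called, with 26 lower and 1 higher, where 43.1% of all probes tested were called (22.3% lower and 20.8% higher). With the adjusted p, 19 were called, all of them lower, against 31.5% of all probes (15.1% lower and 16.4% higher). The median difference was -1.61 over the channel genes and -0.10 over all probes. All I/R arrays lay below all Sham arrays for 28 of the 37 genes and above them for 1, against 62.5% of all probes that did not overlap (35.8% lower and 26.7% higher). By class, 11 of 18 pore-forming genes were called lower and 1 higher (median -1.45), and 15 of 19 auxiliary genes were called lower (median -1.96). Leaving out I/R 1 gave 19 calls, the fewest of any array, where 31.7% of all probes were called. The adjusted calls went to 0 when any single Sham array (Sham 1, 2, or 3), I/R 1, I/R 2, or DHI 3 was left out, with the lowest adjusted p among the channel genes between 0.0577 and 0.133 in those limma fits, which called 19 to 26 of them at unadjusted p under 0.05. Of all probes, 0 or 1 passed the adjusted p in the same fits.

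**Figure D1:**
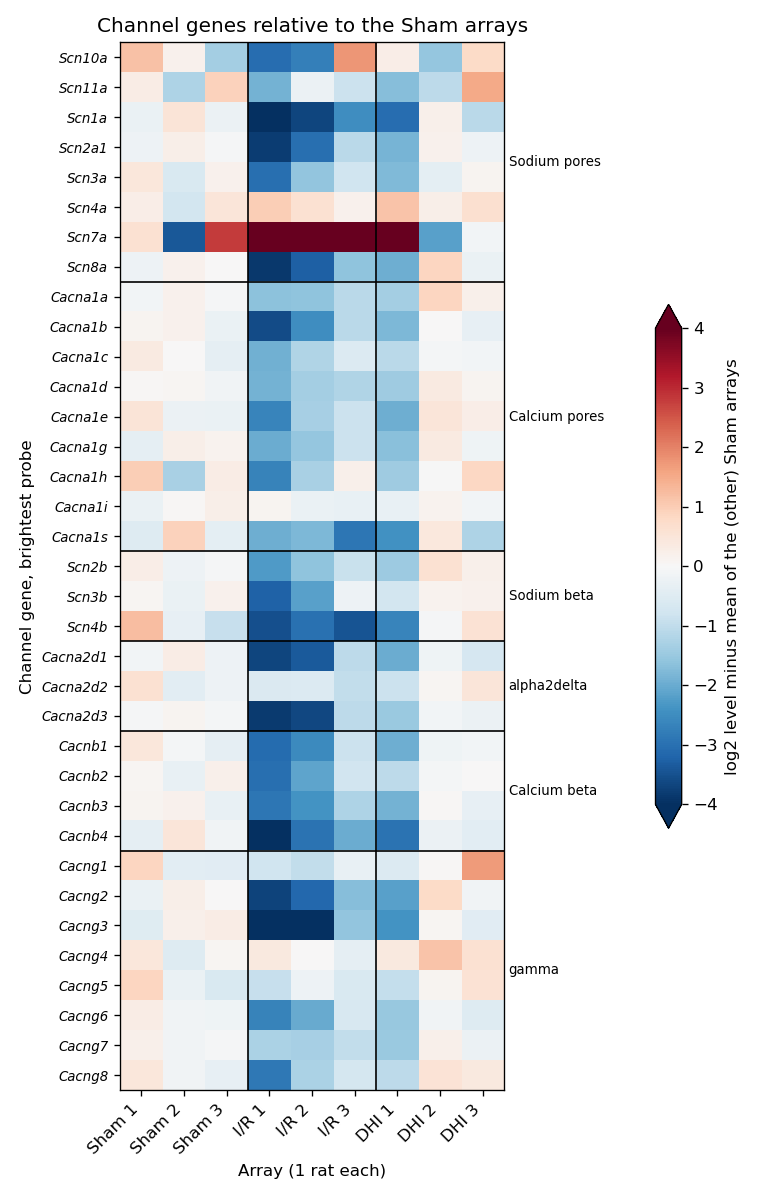
Heat map of 35 of the 37 channel genes tested (rows, by family) on the 9 arrays (columns, 1 rat each). Color gives the log2 level minus the mean of the Sham arrays, with a Sham array left out of its own mean, and the scale is clipped at 4 in both directions. The I/R columns and DHI 1 are mostly blue, DHI 2 and DHI 3 are near the Sham columns, and Scn7a is darkest red on the I/R arrays and DHI 1.

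Among the sodium channel pores, the main types of adult brain fell together. Scn1a, the pore of Nav1.1, which is prominent in fast-spiking interneurons, stood at levels of 1.15, 1.68, and 1.16 in Sham, at -3.52, -2.35, and -1.15 in I/R, and at -1.70, 1.52, and 0.25 in DHI rats. All I/R arrays lay below all Sham arrays, DHI 1 lay within the I/R range, and DHI 2 and DHI 3 lay above it. Scn1a fell by 3.67 ± 0.84 (SE) in I/R versus Sham, a 12.7-fold difference (limma, adjusted p = 0.0396). It was the largest fall among the 37 genes.

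Scn8a encodes Nav1.6, the channel of the axon initial segment and nodes of Ranvier, and had levels of -1.23, -0.97, and -1.07 in Sham, -4.95, -4.37, and -2.70 in I/R, and -3.05, -0.23, and -1.35 in DHI rats. Scn2a1 (Scn2a in RefSeq), which encodes Nav1.2 of excitatory neurons, had levels of 2.28, 2.55, and 2.38 in Sham, -1.39, -0.60, and 1.31 in I/R, and 0.55, 2.56, and 2.21 in DHI rats. Scn3a, whose channel is most abundant before and around birth, had levels of 0.02, -0.70, and -0.18 in Sham, -3.29, -1.85, and -1.07 in I/R, and -2.04, -0.69, and -0.17 in DHI rats. In all 3 genes the I/R arrays lay wholly below the Sham arrays, with I/R 3 the highest of the I/R arrays. The falls were 7.57-fold for Scn8a (adjusted p = 0.0396), 6.19-fold for Scn2a1 (adjusted p = 0.0405), and 3.44-fold for Scn3a, which was called without passing the adjusted threshold (adjusted p = 0.0602, limma).

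Scn4a, Scn10a, and Scn11a were not called. Scn4a, the skeletal muscle channel, had a difference of 0.59 ± 0.33 (SE) in I/R versus Sham. Scn10a (-1.34 ± 1.26) and Scn11a (-0.99 ± 0.84) had lower means in I/R with a wide spread, and their arrays overlapped between groups.

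Scn7a was the only channel gene called higher in I/R. It encodes Nax, an atypical sodium channel that acts as a sensor of extracellular sodium and is known from glia as well as neurons. Its levels were -6.71, -9.38, and -5.24 in Sham, -1.08, -2.53, and -2.96 in I/R, and -1.85, -9.28, and -7.23 in DHI rats. The I/R arrays lay above all Sham arrays, and DHI 1 lay within the I/R range while DHI 2 and DHI 3 lay within the Sham range. Its signal was well above background in 2 of 3 Sham, 3 of 3 I/R, and 1 of 3 DHI rats, so that it was tested only through the group in which it was high, and its call is a description. The difference in I/R versus Sham was 4.92 ± 1.83 (SE, adjusted p = 0.0672, limma), and the call was lost when Sham 1 (5.12), Sham 2 (3.79), I/R 1 (4.37), or I/R 2 (5.09) was left out. Where probes had to be well above background on all 9 arrays, Scn7a was not tested. Of 32 channel genes, 24 were called there, with 0 higher, against 42.7% of all probes in that fit. The other Scn7a probe, tested through the same arrays, had levels of -7.30, -9.07, and -6.60 in Sham, -4.20, -5.60, and -6.28 in I/R, and -4.82, -8.73, and -7.77 in DHI rats, and was not called. In rn4, the brightest Scn7a probe lies on chromosome 3 (chr3:48633684-48633743), the chromosome that also carries the probes of Scn1a (chr3:48238557-48238616), Scn2a1 (chr3:47722732-47722791), and Scn3a (chr3:47496786-47496845), which fell.

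**Figure D2:**
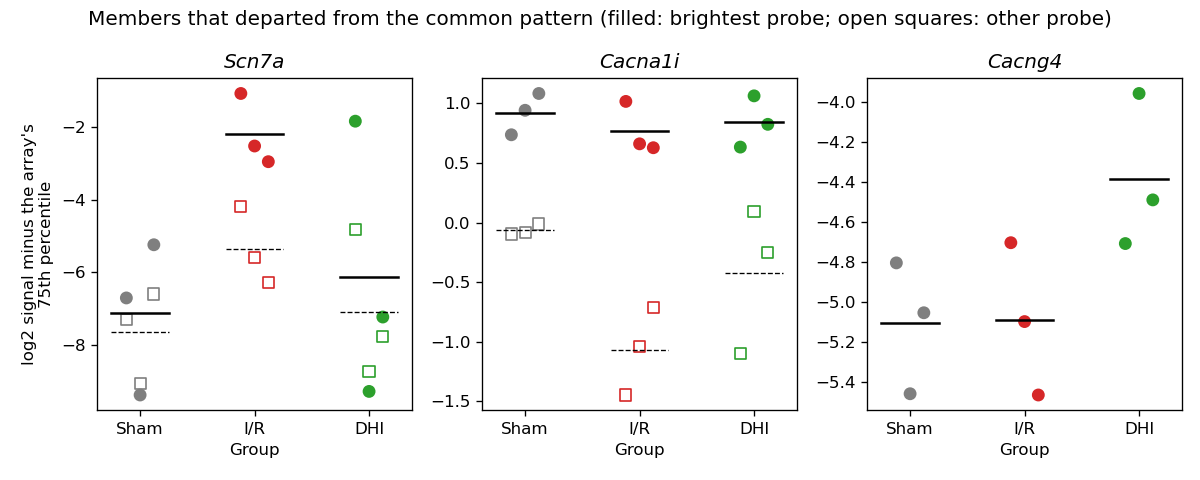
Levels (log2 signal minus the 75th percentile of the array) of Scn7a, Cacna1i, and Cacng4 on each array, with filled circles for the brightest probe, open squares for the other probe, and lines at the group means (solid for the brightest probe, dashed for the other). Each panel has its own vertical scale. Scn7a was higher on all I/R arrays and DHI 1, the 2 Cacna1i probes differed in their I/R levels, and Cacng4 was higher on all DHI arrays than on all Sham arrays.

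Among the calcium channel pores, 7 of 9 genes tested were called lower in I/R and 0 higher (median -1.45). Of all probes, 22.3% were called lower and 20.8% higher. Cacna1b, the N-type pore (Cav2.2) at presynaptic terminals, had levels of 1.14, 1.18, and 0.89 in Sham, -2.50, -1.41, and -0.02 in I/R, and -0.73, 1.08, and 0.75 in DHI rats. Cacna1a, the P/Q-type pore (Cav2.1) that drives most fast transmitter release, had levels of -1.98, -1.80, and -1.94 in Sham, -3.54, -3.51, and -3.0 in I/R, and -3.26, -1.04, and -1.72 in DHI rats. All I/R arrays lay below all Sham arrays in both genes. The falls were 5.21-fold for Cacna1b (adjusted p = 0.0404) and 2.72-fold for Cacna1a (adjusted p = 0.0552, limma). On this brightest probe, Cacna1a was called without passing the adjusted threshold. The second Cacna1a probe fell 6.47-fold and passed it (adjusted p = 0.0396, limma). That probe cleared background in 0 of 3 I/R rats, so that the size of its fall is uncertain. In DHI versus I/R the second probe was 2.48 ± 0.68 (SE) higher, with all DHI arrays above all I/R arrays.

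Cacna1c and Cacna1d encode the L-type pores of brain (Cav1.2 and Cav1.3), which link depolarization to gene expression. Cacna1c had levels of -1.38, -1.62, and -1.87 in Sham, -3.54, -2.82, and -2.17 in I/R, and -2.69, -1.69, and -1.74 in DHI rats, and fell 2.33-fold in I/R (adjusted p = 0.0476, limma). Cacna1d had levels of -4.81, -4.78, and -4.93 in Sham, -6.73, -6.20, and -6.05 in I/R, and -6.26, -4.49, and -4.73 in DHI rats, and fell 2.80-fold (adjusted p = 0.0418, limma). The groups did not overlap between Sham and I/R in either gene. A second Cacna1c probe was 0.60 ± 0.27 (SE) lower in I/R and was not called (adjusted p = 0.106, limma).

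Cacna1e, the R-type pore (Cav2.3), had levels of -3.33, -3.83, and -3.84 in Sham, -6.30, -5.0, and -4.51 in I/R, and -5.61, -3.17, and -3.39 in DHI rats. Its call in I/R was close to the threshold (adjusted p = 0.0960, limma), was lost in 8 of 20 alternative settings, and was not shared by its second probe (-1.20 ± 0.80, SE). Cacna1g, the T-type pore Cav3.1 of thalamic and other bursting neurons, had levels of -0.99, -0.60, and -0.65 in Sham, -2.71, -2.28, and -1.59 in I/R, and -2.40, -0.40, and -0.91 in DHI rats. It fell 2.74-fold in I/R (called, adjusted p = 0.0567, limma), and its second probe was called lower too. Cacna1s, the skeletal muscle L-type pore, fell 4.67-fold (adjusted p = 0.0436, limma), from levels between -3.46 and -2.51 in Sham to levels between -6.03 and -4.92 in I/R rats. Of 7 skeletal muscle markers, 1 was called higher and 2 lower in I/R (42.9% called), where 43.1% of all probes were called. The part of muscle in the Cacna1s result was not tested.

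The T-type pores Cacna1h and Cacna1i were not called on their brightest probes. Cacna1h (Cav3.2) differed by -1.26 ± 0.82 (SE), and its I/R and Sham arrays overlapped. Cacna1i (Cav3.3) had levels of 0.74, 0.94, and 1.08 in Sham, 1.02, 0.66, and 0.63 in I/R, and 0.63, 1.06, and 0.82 in DHI rats, with a difference of -0.15 ± 0.19 in I/R versus Sham (SE). The other Cacna1i probe had levels of -0.10, -0.08, and -0.01 in Sham, -1.45, -1.04, and -0.71 in I/R, and -1.10, 0.09, and -0.25 in DHI rats. In I/R it was called lower and fell by 1.00 ± 0.32 (SE, adjusted p = 0.0455, limma). Both are 60-base probes on chromosome 7 of rn4 (chr7:118681461-118681520 for the brightest and chr7:118681478-118681537 for the other), offset by 17 bases, and their sequences share 43 bases. The ends in which they differ are shown because probes of the same gene symbol gave a flat and a falling reading over this small shift. Whether both signals came from the same transcript was not tested. The first 30 bases of the brightest probe and the last 30 bases of the other probe follow, 5′ to 3′, with the shared bases in capitals.
Cacna1i brightest probe: gctacccgctatcctccCGCCTGCCCCATC
Cacna1i other probe: AGGAGCCAGGGAGcagacagcaatactttg

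Most auxiliary subunits fell as well (15 of 19), where 22.3% of all probes were called lower. All 4 calcium channel beta subunits were called lower in I/R (median -2.16), and among the sodium channel beta subunits Scn2b, Scn3b, and Scn4b were. Of the alpha2delta subunits, which include the target of the drug gabapentin, 2 of 3 tested were called lower, and of the gamma subunits 5 of 8.

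Scn4b, the beta4 subunit that supports resurgent sodium current, had levels of 2.89, 1.84, and 1.45 in Sham, -1.45, -0.93, and -1.40 in I/R, and -0.57, 2.02, and 2.64 in DHI rats. All I/R arrays lay below all Sham and all DHI arrays, and the I/R fall was 9.97-fold (adjusted p = 0.0396, limma). Scn4b is known to be abundant in striatal neurons. Of 9 striatal projection neuron markers tested, 3 were called lower in I/R, where 22.3% of all probes were. The summed linear level of these markers ranged from 10.4 to 52.8 in Sham, 2.87 to 5.14 in I/R, and 4.0 to 50.4 in DHI rats. Sham 1 and DHI 3 were highest for both Scn4b and these markers, and their part in the Scn4b result was not tested.

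Scn3b fell 3.67-fold (adjusted p = 0.0616) and Scn2b fell 3.00-fold (adjusted p = 0.0544), both called without passing the adjusted threshold (limma). In Scn3b, I/R 3 stood at a level of 3.98, just under the lowest Sham level of 4.03, while I/R 1 stood at 0.95.

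The calcium channel beta subunits bind the pore from the cytoplasm and bring it to the membrane. Cacnb4, the subunit mutated in the lethargic mouse, had levels of 1.46, 2.02, and 1.59 in Sham, -2.47, -1.28, and -0.30 in I/R, and -1.25, 1.46, and 1.27 in DHI rats. No I/R array reached the Sham range, and no DHI array rose above the lowest Sham array. The I/R fall was 8.23-fold (adjusted p = 0.0396), and the second Cacnb4 probe fell by 3.03 on the log2 scale. Cacnb3, Cacnb1, and Cacnb2 fell 4.52-fold, 4.45-fold, and 3.89-fold in I/R, with adjusted p of 0.0396, 0.0437, and 0.0405 (limma).

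Cacna2d3 had levels of -0.41, -0.30, and -0.42 in Sham, -4.20, -4.01, and -1.43 in I/R, and -1.85, -0.49, and -0.60 in DHI rats. Its Sham arrays lay close together, above all I/R and all DHI arrays. Among the alpha2delta subunits, Cacna2d3 fell 7.15-fold (adjusted p = 0.0396) and Cacna2d1 fell 6.49-fold (adjusted p = 0.0400, limma) in I/R. Cacna2d2 was 0.71 ± 0.35 (SE) lower and was not called (adjusted p = 0.137), although its I/R arrays lay below its Sham arrays.

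The largest falls among the gamma subunits were those of Cacng3 and Cacng2, both AMPA receptor partners. Cacng3 had levels of 0.06, 0.51, and 0.58 in Sham, -4.03, -4.11, and -1.19 in I/R, and -2.01, 0.47, and -0.08 in DHI rats. Cacng2 (stargazin) had levels of 2.80, 3.14, and 3.00 in Sham, -0.71, -0.17, and 1.28 in I/R, and 0.81, 3.73, and 2.84 in DHI rats. The I/R arrays were wholly below the Sham arrays in both genes, with falls of 11.3-fold for Cacng3 (adjusted p = 0.0396) and 7.20-fold for Cacng2 (adjusted p = 0.0400, limma). Cacng8 fell 3.03-fold (called, adjusted p = 0.0689) and Cacng7 2.27-fold (adjusted p = 0.0498). Cacng6, which is better known from muscle, had levels of -5.74, -6.03, and -6.06 in Sham, -8.62, -7.95, and -6.58 in I/R, and -7.47, -6.08, and -6.47 in DHI rats, and cleared background in 1 of 3 I/R rats. It fell 3.42-fold (adjusted p = 0.0428), while its second probe was not called, with -0.68 ± 0.29 (SE). Cacng1, Cacng5, and Cacng4 were not called, with differences of -0.69, -0.58, and 0.02.

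**Figure D3:**
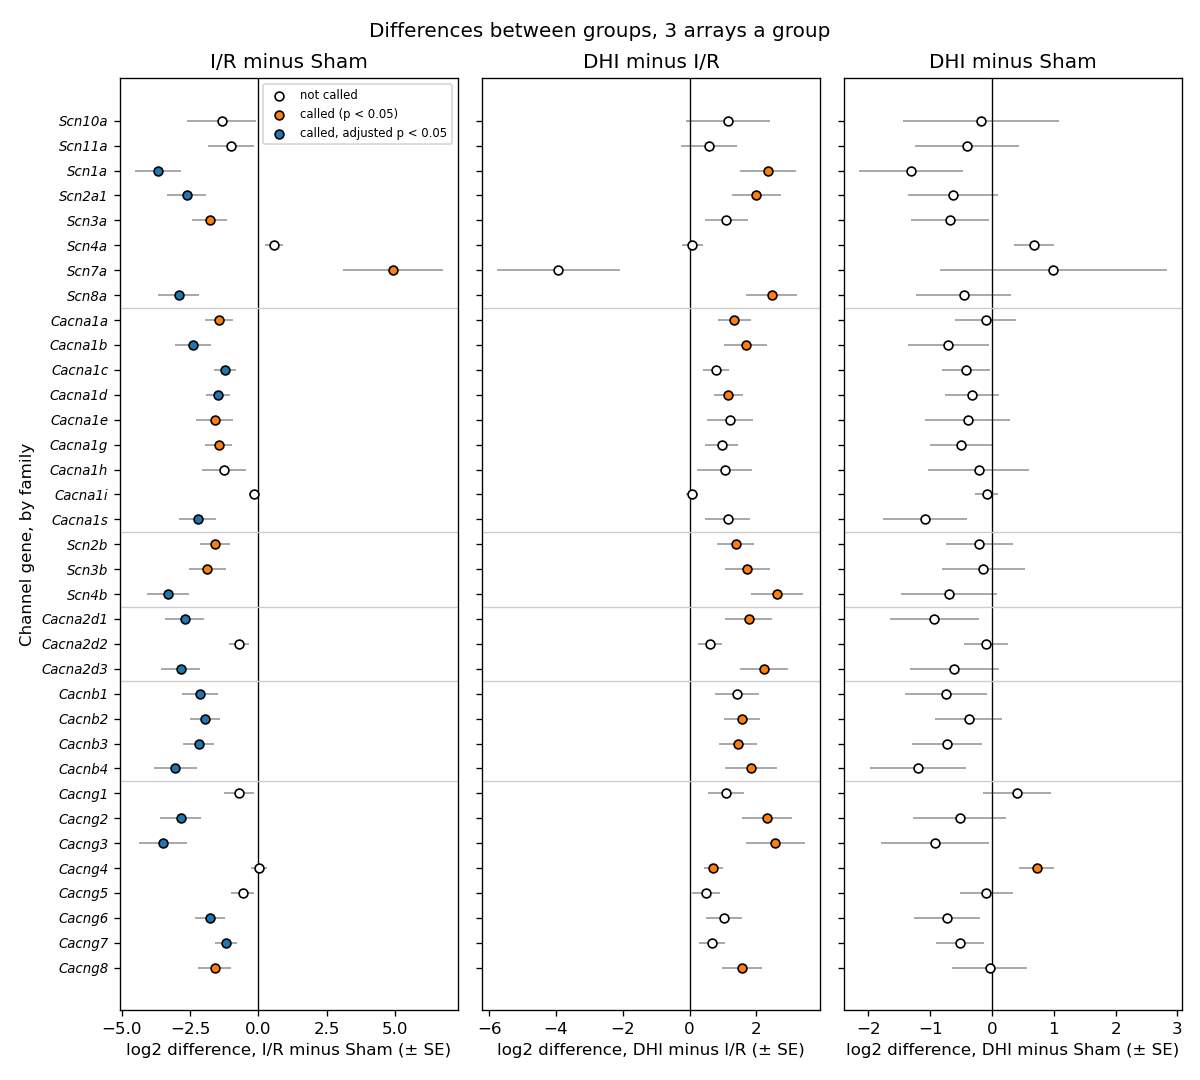
Difference in log2 level between groups for 35 of the 37 channel genes tested, with the SE from limma as bars and 1 panel per comparison with its own horizontal scale. Open circles were not called, orange circles passed FC over 1.5 and p under 0.05, and blue circles also passed the adjusted p. In I/R minus Sham nearly all genes lie left of 0, in DHI minus I/R nearly all lie right of 0 and none is blue, and in DHI minus Sham only Cacng4 is called.

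The size of the fall differed between the I/R arrays. The median deviation of the 37 genes from the Sham mean was -2.80 on I/R 1, -1.60 on I/R 2, and -0.86 on I/R 3, where all probes tested had medians of -0.05, -0.03, and -0.16. For the 26 genes called lower, I/R 3 was the highest I/R array in 24 and I/R 1 the lowest in 22. Neuron markers had the same order, with median deviations of -3.60, -3.06, and -1.06. All 10 neuron markers were called lower in I/R (9 with the adjusted p), from Nefm, the medium neurofilament, at -3.37 to Stmn2 at -1.66, and their summed level was 97.3 to 113 in Sham and 10.5 to 54.0 in I/R rats. Of the channel genes, 10 had a difference below the median of these markers of -2.54, and 7 of the 10 were auxiliary. Where 22.3% of all probes were called lower, excitatory cortical and inhibitory neuron markers were also all called lower (5 of 5 and 6 of 6). Their part in the fall of the channel genes was not tested.

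Markers of several other cell types were higher in I/R. Microglia and macrophage markers were called higher in 7 of 8 (Cd68 by 6.69), T cell markers in 4 of 5, and astrocyte markers in 4 of 7 (Gfap by 3.63, while Slc1a2, the glutamate transporter, fell by 1.12). For microglia and macrophage markers the summed level ranged from 12.2 to 14.0 in Sham, 86.4 to 244 in I/R, and 16.8 to 131 in DHI rats, with DHI 1 the highest DHI array. Scn7a was likewise high on the I/R arrays and DHI 1, and the part of these cells in its result was not tested. Of the oligodendrocyte markers, 0 of 6 were called by limma at the unadjusted threshold. Red blood cell markers fell with the channel genes, being called lower in 3 of 3 (median -2.04, with 0 passing the adjusted p), and their part in the result was not tested. Choroid plexus markers were called higher in 2 of 3.

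**Figure D4:**
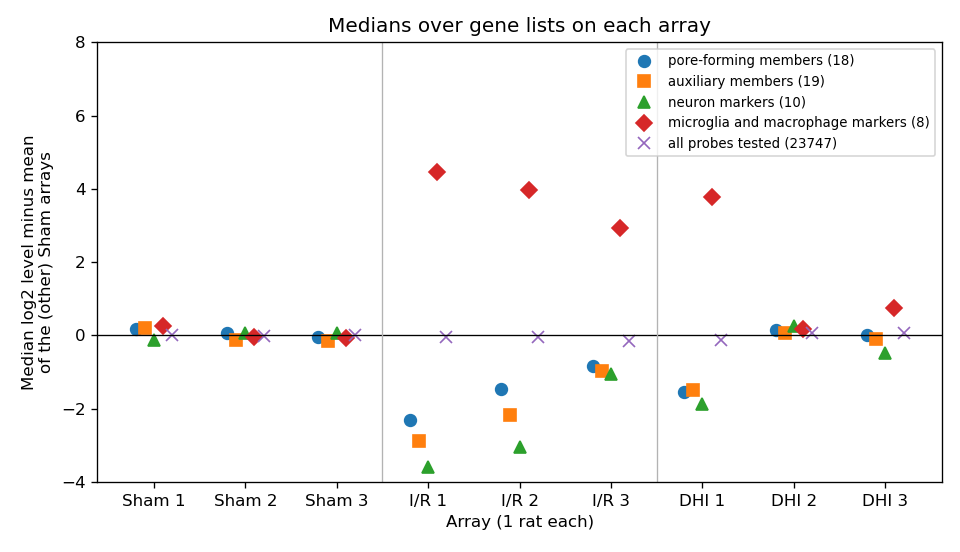
Median log2 level minus the mean of the Sham arrays on each array, for pore-forming and auxiliary channel genes, 10 neuron markers, 8 microglia and macrophage markers, and all 23747 probes tested. Channel genes and neuron markers are lowest on I/R 1 and are low on DHI 1, while DHI 2 and DHI 3 are near 0. Microglia and macrophage markers are high on the I/R arrays and DHI 1, and all probes stay near 0.

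Genes that work with the channels fell as well in I/R. Of 13 sodium channel partners and scaffolds of the axon initial segment and node, 11 were called lower (8 with the adjusted p) and 0 higher, with a median of -1.60. The lowest was Fgf14, an intracellular partner of sodium pores (-2.97 ± 0.77, SE), and the smallest called fall was that of the ubiquitin ligase gene Nedd4l (-0.62 ± 0.26). Of 15 calcium channel partners, 9 were called lower (7 with the adjusted p), led by the calcium sensor Cabp1 (-4.06 ± 0.85), and the RGK proteins that inhibit calcium channels were not called. Of 13 genes of calcium stores and extrusion, 7 were called lower, led by the plasma membrane pump Atp2b2 (-2.98 ± 0.68), and Itpr2, an IP3 receptor gene prominent in astrocytes, was called higher (1.48 ± 0.40). All 10 genes of calcium-dependent kinases and calcineurin were called lower (9 with the adjusted p), led by Camkk2 (-3.99 ± 0.78). Of 8 AMPA receptor subunits and partners, 4 were called lower, led by Gria4 (-2.57 ± 0.66). In these lists the median difference lay between -2.09 and -1.23. Of all probes, 22.3% were called lower and 20.8% higher in I/R (15.1% and 16.4% with the adjusted p). In DHI versus I/R, 8 of the 13 sodium channel partners, 9 of the 15 calcium channel partners, 5 of the 13 store and extrusion genes, 7 of the 10 kinase and calcineurin genes, and 2 of the 8 AMPA receptor genes were called higher, and 0 lower, where 11.5% of all probes were called higher. In each of these lists 0 genes passed the adjusted p (limma). Without DHI 1 the calls higher were 11, 10, 9, 9, and 5 in the same order, with 3 store and extrusion genes called lower. In that fit 45.2% of all probes were called, and 57.8% of those calls were higher.

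The promoters of members that moved together are shown for reference. RefSeq (GRCr8) held the promoter of 27 of the 40 genes, and 8 short motifs were searched for on both strands in the 250 bases before the transcription start. The GC box GGGCGG was in 13 of the 27 promoters and in 30.5% of all 33469 promoters. The CCAAT box was in 4 of the 27 (34.0% of all), and the TATA box motif TATAAA in 2 (12.9% of all). TTCAGCACC, the first part of the RE1 element bound by the neuronal gene silencer REST, was in Cacng3 alone (0.305% of all), and the STAT-type motif TTCCNGGAA was in Scn2b alone (1.07% of all). The cyclic AMP response element TGACGTCA (1.59% of all), the E-box of the form CACGTG (5.59% of all), and the AP-1 site of the form TGACTCA (4.05% of all) were in 0 of the 27. Shown are Cacng3, the strongest fall with an entry, Scn8a, the strongest falling pore with one, and Scn7a, whose mean was higher in I/R. Motif matches are in capitals, 5′ to 3′ on the strand of the gene, and the median GC content of the 27 members was 62.8% against 51.2% over all promoters.
Cacng3, chr1:186632312-186632561, plus strand, with TTCAGCACC at 2 places and the GC box at 1: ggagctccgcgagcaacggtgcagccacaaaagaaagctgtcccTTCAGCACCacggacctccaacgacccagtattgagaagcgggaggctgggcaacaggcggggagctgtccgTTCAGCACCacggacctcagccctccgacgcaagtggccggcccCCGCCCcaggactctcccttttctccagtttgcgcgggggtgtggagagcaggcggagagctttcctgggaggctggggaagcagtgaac
Scn8a, chr7:133860977-133861226, plus strand, with the GC box at 6 places: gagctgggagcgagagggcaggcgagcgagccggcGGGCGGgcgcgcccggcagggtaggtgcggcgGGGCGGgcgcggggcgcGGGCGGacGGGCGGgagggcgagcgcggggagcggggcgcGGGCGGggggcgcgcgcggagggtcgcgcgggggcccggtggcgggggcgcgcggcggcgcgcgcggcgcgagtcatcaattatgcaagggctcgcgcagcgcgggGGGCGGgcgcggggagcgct
Scn7a, chr3:71846285-71846534, minus strand, with the GC box at 1 place: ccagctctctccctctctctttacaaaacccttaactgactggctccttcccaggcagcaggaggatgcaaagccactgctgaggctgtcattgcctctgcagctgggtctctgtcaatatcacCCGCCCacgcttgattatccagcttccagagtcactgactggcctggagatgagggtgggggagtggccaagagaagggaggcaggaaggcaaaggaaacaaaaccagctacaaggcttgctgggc
The arrays measured transcripts and not these regions, and a match of letters is a description of the sequence only.

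DHI versus I/R asks whether channel genes differed between treated and untreated rats, and it shares the I/R arrays with the comparison above. Of the 37 genes, 19 were called, all of them higher in DHI (6 pore-forming and 13 auxiliary), where 21.9% of all probes were called (11.5% higher). With the adjusted p, 0 were called by limma, the lowest adjusted p being 0.196, against 0.00421% of all probes. The median difference was 1.22 over the channel genes (1.13 for pores and 1.56 for auxiliary subunits) and 0.10 over all probes. Scn7a was the only gene with a lower mean in DHI, with a difference of -3.93 ± 1.83 (SE), and it was not called.

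Among the genes higher in DHI, the largest differences were those of Scn4b, at 2.62 ± 0.78 (6.15-fold), Cacng3, at 2.57 ± 0.88 (5.95-fold), Scn8a, at 2.46 ± 0.76 (5.50-fold), and Scn1a, at 2.36 ± 0.84 (5.14-fold, all with the SE). Without DHI 1 they were 3.58 ± 0.43 for Scn4b, 3.31 ± 0.83 for Cacng3, 3.21 ± 0.64 for Scn8a, and 3.23 ± 0.68 for Scn1a. The SEs pool groups of unlike spread. Standard deviations in Sham, I/R, and DHI rats were 0.75, 0.29, and 1.70 for Scn4b and 0.28, 1.66, and 1.30 for Cacng3. For Scn8a they were 0.13, 1.17, and 1.42, and for Scn1a 0.30, 1.19, and 1.62. All DHI arrays lay above all I/R arrays for 2 genes, Scn4b among them, against 9.53% of all probes that did not overlap (5.51% higher and 4.02% lower). Other members called were Scn2a1, Cacna1a, Cacna1b, and Cacna1d among the pores and Scn2b, Scn3b, Cacna2d1, Cacna2d3, Cacnb2, Cacnb3, Cacnb4, Cacng2, Cacng4, and Cacng8 among the auxiliary subunits. Cacnb1 had levels of 2.76, 2.41, and 2.23 in Sham, -0.61, -0.07, and 1.62 in I/R, and 0.51, 2.29, and 2.37 in DHI rats on its brightest probe. On its second probe the levels were -0.92, -0.82, and -0.89 in Sham, -2.67, -2.45, and -1.80 in I/R, and -2.0, -0.61, and -0.80 in DHI rats. DHI 1 lay within the I/R range on both probes. In DHI versus I/R, Cacnb1 was not called on its brightest probe (1.41 ± 0.66) and was called on its second probe (1.17 ± 0.38, SE).

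The count of 19 rested on the single DHI and I/R arrays. Without DHI 1 it was 31, against 45.2% of all probes in that fit, with 30 higher and Scn7a lower (-6.06 ± 1.23, SE). Of these genes, 26 passed the adjusted p, as did 9527 of all 23747 probes. Leaving out I/R 1 or DHI 2 gave 4 (5.82% and 3.95% of all probes), and leaving out I/R 2 or DHI 3 gave 5 (6.99% and 4.75%). A t-test, as named in the Results of the study, called 0 of the 37 (1.97% of all probes). The fit of the 2 groups alone called 8 (9.05% of all probes), and the fit with array weights called 33 (50.1% of all probes). Without scaling between arrays 8 were called, where 31.3% of all probes were. Of the 19 genes, 3, with Scn4b and Scn8a among them, kept their call whichever array was left out.

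DHI 1 stood apart from the other DHI arrays. The median deviation of the 37 genes from the Sham mean was -1.50 on DHI 1, 0.09 on DHI 2, and -0.10 on DHI 3. For the 26 genes called lower in I/R, DHI 1 was below all Sham arrays in 26 and the lowest DHI array in 26, whereas DHI 2 was below all Sham arrays in 4 and DHI 3 in 13. Neuron markers had median deviations of -1.87, 0.26, and -0.47 on the same arrays, and 9 of 10 were called higher in DHI than in I/R rats (10 of 10 without DHI 1). Of all probes, 11.5% were called higher and 10.5% lower in DHI versus I/R. In the fit without DHI 1, 45.2% of all probes were called, and 57.8% of those calls were higher. Microglia and macrophage markers were called lower in 6 of 8 and higher in 0 (median -2.45). Without DHI 1 they were called lower in 7 of 8 and higher in 1. Red blood cell markers were called higher in 3 of 3 (median 2.67), with all DHI arrays above all I/R arrays. The part of these cells in the difference was not tested.

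DHI versus Sham gave 1 call among the 37 channel genes, where 3.58% of all probes were called (2.52% higher), and 0 passed the adjusted p (limma). The median difference was -0.46, with 33 of 37 genes at a lower mean in DHI than in Sham, and -0.02 when DHI 1 was left out, where all probes had 0.02 and 0.07. Cacng4, another gamma subunit that partners AMPA receptors, had levels of -4.80, -5.46, and -5.05 in Sham, -4.70, -5.10, and -5.47 in I/R, and -4.71, -3.95, and -4.49 in DHI rats. The DHI arrays were above all Sham arrays, which 10.3% of all probes had, and DHI 1 was just below the highest I/R array. The difference was 0.72 ± 0.29 against Sham (1.65-fold, adjusted p = 0.709) and 0.71 ± 0.29 against I/R (1.63-fold, adjusted p = 0.196, limma). The call against Sham was lost in 11 of 20 alternative settings, among them quantile normalization and leaving out Sham 2, Sham 3, I/R 2, DHI 2, or DHI 3 (0.46 to 0.88 over all settings). Without DHI 2 the count of channel genes called was 5, where 10.6% of all probes were called. Cacna2d1, Cacna2d3, Cacnb4, and Cacng6 were lower on all DHI arrays than on all Sham arrays without being called, with differences between -1.20 and -0.61, where 8.33% of all probes lay so.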

How the data were processed

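For each of the 9 single-color Agilent arrays, the authors deposited spot intensities from Agilent Feature Extraction (10.7.1.1 in the submitters' processing notes), background-corrected and without scaling across arrays. A series table of log2 values was deposited too, which followed quantile-normalized values computed here (Pearson's r at least 0.9995 over probes) and served as an alternative. Its normalization is not given in the sources used here.

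Control and outlier spots were left out, spots of a probe were averaged as log2 of the processed signal, and the 75th percentile of the array was subtracted. The 23747 probes well above background on all 3 arrays of a group, in at least 1 group, were fitted in R 4.3.3 with limma 3.58.1 over all 9 arrays (lmFit and eBayes, 6 residual degrees of freedom), with Benjamini-Hochberg adjustment. The thresholds (FC over 1.5, p under 0.05) are those of the study, and the t-test named in its Results was an alternative. The steps were tested on simulated data. The number of arrays limits the precision. Rats are the replicates.

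The members and gene lists were chosen with earlier results of these data known, and lists are described by counts and medians without a test. Values on each array are given for the main brain pores, the members with the largest called differences, those called against the majority, and those whose probes disagreed. Some genes count in the totals but are not reported singly here or shown in the plots. Accessions of 37 of the 40 genes matched RefSeq (GRCr8), which names 1 differently. Probe coordinates are those of the files (rn4). Of the value columns, 0 were left unused. Alternatives were other normalizations, background correction, filters, models, weights of arrays, blocking on the replicate number, the mean over the probes of a gene, and leaving out each array.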

Additional observations from a re-analysis of the deposited data

How the results depend on the processing

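Counts of called channel genes are out of 37 tested, or 32 when probes had to be well above background on all 9 arrays. Without the filter on dim probes they are out of 40. In I/R versus Sham the 27 calls varied between 19 and 29 when 1 array was left out (31.7% to 48.6% of all probes). Under the other settings they varied between 24 and 31 (36.1% to 55.1% of all probes). Of the 27 genes, 18 kept their call under every alternative in which they were tested, which were all 20 for 17 of them. The 19 calls with the adjusted p became 0 without scaling (lowest adjusted p 0.0520), 30 with array weights, and 12 with the t-test, and varied between 0 and 27 when 1 array was left out. Of all 23747 probes, 1, 13013, and 6183 passed in these settings, and 0 to 10266 when 1 array was left out. In DHI versus I/R the 19 calls became 8 without scaling (7 higher and 1 lower, where 31.3% of all probes were called), 8 with only the 2 groups compared (9.05%), 33 with array weights (50.1%), and 0 with the t-test (1.97%). They varied between 4 and 31 when 1 array was left out (3.95% to 45.2% of all probes). With the adjusted p, 0 became 33 with array weights and varied between 0 and 26 when 1 array was left out. Of all 23747 probes, 11817 passed with array weights and 0 to 9527 when 1 array was left out. In DHI versus Sham the single call became 0 with quantile normalization, normexp background correction, the series table of the authors, and the t-test, 2 without scaling or without the filter on dim probes, and 8 with array weights, and varied between 0 and 5 when 1 array was left out. Of all probes, 7.11% were called without scaling, 4.63% without the filter, 14.7% with array weights, and 1.45% to 10.6% when 1 array was left out. With the adjusted p, 0 became 3 with array weights (1986 of all probes), and stayed 0 when any 1 array was left out. Cacng5 in DHI versus Sham turned from -0.09 to 0.66 with array weights and was called there. The cause of these changes was not tested.

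Over all probes, the share of called probes that were higher in DHI versus I/R was 52.2%, and 4.80% without scaling, where the median of all probes moved from 0.10 to -0.36. In DHI versus Sham it was 70.4%, 5.21% without scaling, 37.5% with quantile normalization, 37.0% with the series table, and 87.3% with normexp. In I/R versus Sham it was 48.3%, and 60.9% without scaling. In all, 9, 12, and 49 of the 735 alternative values of single genes in each comparison changed sign while uncalled in both fits.

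The labels do not say whether the replicate numbers pair the samples. Deviations of same-numbered samples correlated between -0.34 and 0.48, and those of samples with different numbers between -0.53 and 0.46. With the replicate number as a block, 27 genes were called in I/R versus Sham (24 with the adjusted p), where 43.8% of all probes were called. The same block gave 20 calls for DHI versus I/R (26.6% of all probes) and 1 for DHI versus Sham (5.39%), with 0 and 0 passing the adjusted p.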
